A study of Mus musculus with 4 samples.

Results

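The genes described here are those of the cytosolic ribosomal proteins. They were taken by symbol, as Rpl or Rps followed by a number and optional letters, together with Rplp0, Rplp1, Rplp2 and Rpsa, and without the S6 kinases. This gave 84 of the 32285 genes in the files, 52 of the large subunit (Rpl and Rplp) and 32 of the small subunit (Rps and Rpsa). The symbols do not take in Fau, which encodes a ribosomal protein fused to a ubiquitin-like protein. The genes were chosen with their shares by cell type and their tumor differences already known, so both are given as description. Where the number of members past a threshold is printed for a tumor difference, it is a count beside that of all genes and not evidence. Counts of members at an unadjusted p under 0.05 are given without the share of all genes at that threshold. Nothing is read from them.

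RNA of single cells from mouse lungs was counted in 4 groups. These were LAIR1KO and WT lungs that bore B16/F10 tumor cells, which are a melanoma line of the mouse, and normal lungs of LAIR1KO and WT mice. LAIR1KO mice lack Lair1, an inhibitory receptor that binds collagen, and the labels do not give the age of the mice, the background strain or the route of the tumor cells. Each group was 1 droplet library of 3 replicates marked with hashtag antibodies, so library and group cannot be told apart. The labels do not say whether the hashtags mark separate animals, so p-values here measure the spread between hashtag replicates only.

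The libraries held 25216301 to 28034709 gene UMIs (unique molecular identifiers, 1 for each captured RNA molecule) in 16350 barcodes, of which 30 occurred in more than 1 library. After filters 8468 cells with 1 hashtag were kept, 1770 to 2400 a library, and 7649 of them fell into 12 classes named from markers. Neutrophil-like cells had all 10 of 10 markers above their level in other cells, and interstitial macrophage-like cells 12 of 12. Epithelial cell-like cells had 9 of 10 and monocyte-like cells 14 of 15, and each other class had all of its markers higher. Lair1 had 3 and 1 UMIs among the kept cells of LAIR1KO tumor-bearing and LAIR1KO normal lungs, against 730 and 302 in WT tumor-bearing and WT normal lungs. The WT normal library was male by its transcripts (Xist 0.335 CPM, UMIs of a gene per 1000000 gene UMIs), and the other 3 were female (Xist 1124 to 1297 CPM). Only the genotypes in tumor-bearing lung and the tumor difference in LAIR1KO were therefore matched for sex.

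A ribosome of the cytosol joins a small subunit, which reads the mRNA, to a large subunit, which forms the peptide bond. Each subunit is built from ribosomal RNA and about equal numbers of copies of its proteins, whose mRNAs are among the most abundant of growing cells. Most of these mRNAs begin at a C followed by a run of pyrimidines, the 5′ terminal oligopyrimidine (TOP) motif, through which mTOR signalling and Larp1 control their translation. Mature neutrophils are short-lived, do not divide and carry little RNA.

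The start of the transcript is shown for some of the genes on which the results below turn, because the TOP motif lies there. Each window holds 20 bases before the RefSeq start (GRCm38.p6) and 20 from it on, read on the strand of the gene, with the pyrimidine run in capitals where one begins with C, holds at least 4 more pyrimidines and starts within 5 bases of the annotated start. Rps27, Rpl27a and Rpl35a are described below by level or by group, Rps27l and Rpl22l1 are paralogs described by cell type, and Rps28 is a gene called in the tests, in which the search found no run. Among genes past a threshold below whose windows are not printed, Rpl24, Rpl26, Rpl41 and Rps4x had no run either, and Rpl35 had one.
Rps27 (chr3:90213629-90213668, minus strand): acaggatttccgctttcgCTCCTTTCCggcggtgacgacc
Rpl27a (chr7:109519175-109519214, plus strand): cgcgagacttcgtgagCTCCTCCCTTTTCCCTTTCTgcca
Rpl35a (chr16:33056462-33056501, plus strand): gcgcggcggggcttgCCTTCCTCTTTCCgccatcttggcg
Rps27l (chr9:66946066-66946105, plus strand): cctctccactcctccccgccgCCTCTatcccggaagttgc
Rpl22l1 (chr3:28805488-28805527, plus strand): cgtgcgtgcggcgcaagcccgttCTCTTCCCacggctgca
Rps28 (chr17:33824543-33824582, minus strand): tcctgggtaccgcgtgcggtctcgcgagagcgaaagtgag

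Of the 84 genes 64 had an entry in the RefSeq promoter table, and 29 of them (45.3%) held such a run, against 5718 of 27025 genes of the whole table (21.2%). Other translation genes known for a TOP start held it in 5 of 13 (38.5%), and genes of mitochondrial ribosomal proteins in 17 of 69 (24.6%). A gene was counted where any of its annotated starts held a run. Rpl35a has 3 annotated starts and Rps27l has 2, and the windows shown are the only ones of these genes with a run. The search rests on annotated starts, which can lie some bases from the starts in use, and no run in a window says only that these letters are not there. The genes with no entry included Rpl17, Rpl21, Rpl23a, Rpl29, Rpl3, Rpl30, Rpl32, Rpl36, Rpl7, Rpl8, Rplp1, Rps14, Rps20, Rps27a and Rps29.

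The 84 genes lie on 19 chromosomes in the GENCODE M21 annotation of mm10, and 4 are on the X chromosome (Rpl39, Rps4x, Rpl10 and Rpl36a). They held 4881003 of the 50088060 UMIs of the kept cells (9.74%), and 32 of them were among the 100 genes with the most UMIs. Rps29, a small-subunit protein with a zinc-binding site, led with 5.01% of these ribosomal protein UMIs, followed by Rpl41, a very short peptide of the large subunit, with 3.74%. Rpl37a held 3.25%, Rps27 3.03%, Rps28 2.99%, Rplp1 2.62%, Rpl35a 2.46%, Rpl39 2.41%, Rpl38 2.39% and Rps24 2.36%. Together these 10 genes made up 30.3%. At the other end stood Rpl7l1 with 1741 UMIs, Rpl3l with 274, Rpl39l with 53 and Rpl10l with 2. Another 6 near copies with similar symbols, such as Rps27rt (2740 UMIs) and Rpl10-ps3 (1425 UMIs), were not added, and how reads were split between copies and parent genes is uncertain.

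Neutrophil-like cells had the lowest share of UMIs in ribosomal protein genes of the 12 classes. Their share was 2.92% ± 0.352 (SD over 12 hashtag replicates), with a lowest replicate of 2.35%, a median of 2.96% and a highest of 3.34%. Per cell this was a median of 45 ribosomal protein UMIs out of 1611.5 UMIs. Every replicate of every other class lay above the highest neutrophil-like one.

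Lymphocytes stood at the other end. T cell-like cells had 25.4% ± 4.81 (n = 7) and B cell-like cells 22.5% ± 3.03 (n = 8), and their replicates overlapped. Conventional dendritic cell-like cells had 16.6% ± 1.14 (n = 8) and natural killer cell-like cells 16.5% ± 1.45 (n = 4), with no difference beyond their spread. Monocyte-like cells had 14.6% ± 1.08 (n = 10), alveolar macrophage-like cells 13.3% ± 0.527 (n = 6) and interstitial macrophage-like cells 11.3% ± 0.800 (n = 12). Fibroblast-like cells (9.66% ± 0.443, n = 12) and epithelial cell-like cells (9.49% ± 0.534, n = 11) overlapped. Pericyte or smooth muscle-like cells had 8.28% ± 0.314 (n = 3) and endothelial cell-like cells 7.62% ± 0.493 (n = 12). In this order neighbouring classes overlapped in their replicates, except B cell-like against conventional dendritic cell-like, alveolar against interstitial macrophage-like, epithelial cell-like against pericyte or smooth muscle-like, and endothelial cell-like against neutrophil-like cells. B cell-like cells had a median of 2042.5 UMIs and natural killer cell-like cells 2203.5, the depths nearest to that of neutrophil-like cells.

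**Figure D1:**
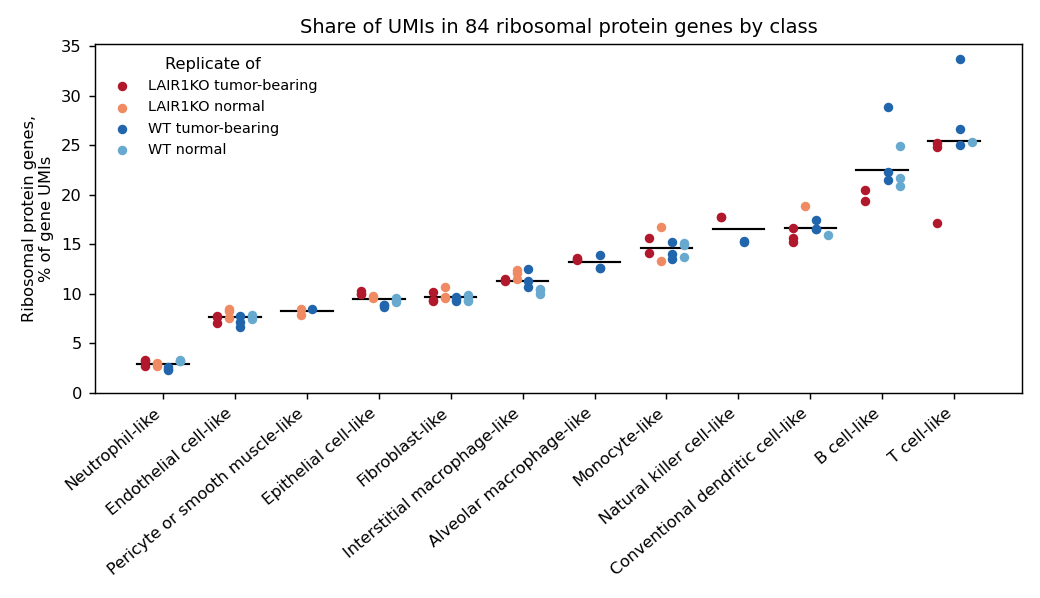
The percent of gene UMIs in the 84 ribosomal protein genes is plotted for each class, with 1 point for each hashtag replicate of at least 10 cells, coloured by group, and a line at the mean. Neutrophil-like replicates lie between 2.35 and 3.34%, below all others, and T cell-like replicates reach 33.7%.

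The make-up of these transcripts also differed in neutrophil-like cells. Rps27, a zinc-finger protein of the small subunit, made up 9.31% of their ribosomal protein UMIs, 3.04-fold the median of the 12 classes. Rps9, known in yeast for its part in decoding fidelity, made up 7.45% (4.76-fold the median class). Rps27a, which is made as a fusion with ubiquitin, made up 4.10% (2.38-fold), and Rpl37 3.79% (2.04-fold). These were the 4 genes at 2-fold or more among the 80 with at least 0.1% of ribosomal protein UMIs.

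In level, Rps9 and Rps27 of neutrophil-like cells lay within the range of the other classes. Rps9 stood at 2173 ± 116 CPM (SD, n = 12) there, against 2032 ± 167 CPM in interstitial macrophage-like cells, 1305 ± 61.3 CPM in fibroblast-like cells and 1037 ± 158 CPM in pericyte or smooth muscle-like cells (n = 12, 12 and 3), and 3686 ± 573 CPM in B cell-like cells, the highest. Rps27 stood at 2735 ± 345 CPM in neutrophil-like cells, close to 2757 ± 269 CPM in interstitial macrophage-like and 2743 ± 143 CPM in fibroblast-like cells, and far under 10652 ± 972 CPM in B cell-like cells. These levels count molecules at their 3′ end and are not scaled by gene length.

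Other genes were a much smaller part of the neutrophil-like pool. Rpl10a stood at 0.185 times the median class, Rpsa, also known as a laminin receptor, at 0.233 times, Rpl3, which lies near the peptidyl transferase centre, at 0.236 times, Rps20 at 0.238 times and Rpl12 at 0.241 times. In level, Rpsa had 79.6 ± 21.3 CPM in neutrophil-like cells, against 716 to 3821 CPM as class means elsewhere. In all, 21 of the 80 genes were 2-fold or more below the median class in neutrophil-like cells, and 45 had their lowest part of the pool there. Another 15 had their highest part there. The 5 genes that lead the neutrophil-like pool (Rps27, Rps9, Rpl41, Rps29 and Rps27a) made up 31.3% of it, against a median of 14.9% over the classes.

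**Figure D2:**
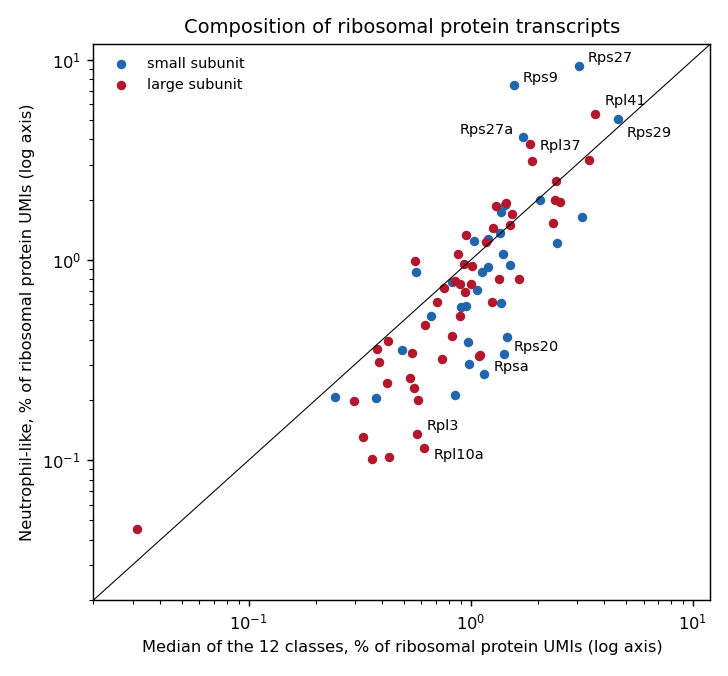
Each point is 1 ribosomal protein gene, with its percent of ribosomal protein UMIs in neutrophil-like cells (vertical) against the median of the 12 classes (horizontal), both on log axes. Rps27, Rps9, Rps27a and Rpl37 lie above the line of equality, and Rpl10a, Rpsa, Rpl3 and Rps20 lie below it.

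Ranked by their part of the pool, the genes of neutrophil-like cells correlated with those of the other 11 classes at Spearman's rho 0.767 to 0.865, while the other 55 pairs of classes gave 0.895 to 0.980. These are correlations across genes, described without a test, and genes of 1 library are not independent. Large-subunit UMIs exceeded small-subunit UMIs 1.02-fold ± 0.038 in neutrophil-like cells (SD, n = 12), the lowest of the classes, and 1.30-fold in alveolar macrophage-like and in pericyte or smooth muscle-like cells, the highest. The ratio was alike in the groups of neutrophil-like cells, at 1.05 ± 0.014 in LAIR1KO tumor-bearing, 1.02 ± 0.032 in LAIR1KO normal, 1.02 ± 0.074 in WT tumor-bearing and 1.01 ± 0.017 in WT normal lungs (SD, n = 3 each).

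Several members have a paralog, and the pairs differed between cell types. Rps27l, a paralog of Rps27 known as a p53 target, was highest in conventional dendritic cell-like cells, at 1467 ± 310 CPM (SD, n = 8), against class means of 58.5 to 423 CPM elsewhere. There Rps27l made up 0.831% of ribosomal protein UMIs, 3.39-fold the median class. Rpl22l1, the paralog of Rpl22, made up its largest part in fibroblast-like cells, at 0.807% (2.08-fold the median class). In those cells Rpl22l1 had 774 ± 99.5 CPM and Rpl22 859 ± 32.8 CPM (n = 12), whereas interstitial macrophage-like cells had 286 ± 39.9 CPM of Rpl22l1 and 965 ± 100.4 CPM of Rpl22 (n = 12). In level Rpl22l1 was highest in T cell-like cells, at 1079 ± 199 CPM (n = 7). Rpl36al exceeded Rpl36a in monocyte-like cells (750 ± 97.9 against 599 ± 73.9 CPM, n = 10) and was below it in fibroblast-like cells (307 ± 24.8 against 688 ± 74.6 CPM, n = 12). Rpl7l1 stood at 14.1 to 57.1 CPM as class means, against 143 to 1327 CPM for Rpl7. Rpl39l, known from testis, had 53 UMIs in all, and Rpl10l, likewise known from testis, had 2, too few for a level.

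Rpl3l is known as the form of Rpl3 in heart and skeletal muscle. Here 161 of its 274 UMIs lay in 2198 neutrophil-like cells (41.8 ± 20.2 CPM, n = 12), 60 in alveolar macrophage-like and 37 in monocyte-like cells (35.2 ± 16.7 CPM, n = 6, and 41.7 ± 30.6 CPM, n = 10). Each other class had at most 3. In neutrophil-like cells Rpl3 itself had 41.7 ± 16.2 CPM, against class means of 444 to 1450 CPM elsewhere, so that the counts of the pair were about equal there. A UMI of Rpl3l was found in 6.41% of neutrophil-like cells, with a median of 1611.5 UMIs a cell, and in 0 of 1257 fibroblast-like cells, with a median of 8049. That count of 0 allows a share of up to 0.239% of cells with a UMI, a limit that covers counting error only. Rpl3l (chromosome 17, 24727820 to 24736143, plus strand, mm10) ends 498 bases before Msrb1, a methionine sulfoxide reductase on the same strand. Msrb1 had 3083 ± 147 CPM in neutrophil-like, 1106 ± 242 CPM in monocyte-like and 951 ± 116 CPM in alveolar macrophage-like cells, and class means of 35.0 to 128 CPM elsewhere. The 3 classes with Rpl3l counts were thus those with the highest Msrb1, and whether reads of Msrb1 were counted for Rpl3l was not tested. This neighbour was looked up after the values of Rpl3l were seen.

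Among the genes outside the family whose level over the 12 classes ranked most like the summed ribosomal protein share, of 6210 genes ranked, were Eef1b2 (Spearman's rho 0.972), an elongation factor subunit, then the gene models Gm11808 and Gm2000 (0.965 each), and Rack1 (0.958), a protein bound to the small subunit.

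In neutrophil-like cells the share of ribosomal protein UMIs was lowest in WT tumor-bearing lungs. The replicates had 2.72, 3.34 and 3.27% in LAIR1KO tumor-bearing, 3.01, 2.91 and 2.73% in LAIR1KO normal, 2.35, 2.40 and 2.65% in WT tumor-bearing, and 3.22, 3.21 and 3.28% in WT normal lungs. In WT every tumor-bearing replicate lay below every normal one. In LAIR1KO the groups overlapped, and LAIR1KO tumor-bearing replicate 1 lay apart from the other two of its group, near the WT tumor-bearing ones. Every LAIR1KO tumor-bearing replicate was above every WT tumor-bearing one, though replicate 1 (2.72%) was close to the highest of them (2.65%).

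The group means stood in the same order inside each of the 3 neutrophil-like clusters, which were built without the ribosomal protein genes. Replicates of LAIR1KO and WT tumor-bearing lungs did not overlap in clusters 0 and 6, though in cluster 0 the lowest LAIR1KO one (2.66%) was close to the highest WT one (2.64%). In cluster 7 the lowest LAIR1KO one (2.65%) lay below the highest WT one (2.66%). Cluster 6 held few cells, with 25, 13 and 12 in LAIR1KO tumor-bearing and 10, 16 and 8 in WT tumor-bearing replicates. The last is under the minimum of 10 cells used for the classes. In cluster 0, with the most cells, WT tumor-bearing lungs averaged 2.40% and WT normal lungs 3.18%. The cluster with high interferon-induced genes (cluster 7) averaged 2.53% in WT tumor-bearing and 3.43% in WT normal lungs. Cluster 6, whose leading genes include the epithelial genes Ager and Cldn18, averaged 2.53% in WT tumor-bearing and 3.14% in WT normal lungs. In LAIR1KO the tumor-bearing and normal means were 3.03 and 2.75% in cluster 0, 3.08 and 3.03% in cluster 6, and 3.32 and 2.90% in cluster 7.

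Depth moved with these groups. The median UMIs per neutrophil-like cell were 1384 to 1512 in replicates of LAIR1KO tumor-bearing, 1550 to 1636 in LAIR1KO normal, 1421 to 1579 in WT tumor-bearing and 1925 to 1967 in WT normal lungs. Among cells of 1000 to 2000 UMIs only, the shares were 2.66, 2.80 and 3.10% in LAIR1KO tumor-bearing, 2.78, 2.88 and 2.65% in LAIR1KO normal, 2.37, 2.40 and 2.63% in WT tumor-bearing, and 3.36, 3.48 and 3.50% in WT normal lungs. Within that range WT tumor-bearing replicates again lay below all WT normal ones and below all LAIR1KO tumor-bearing ones, the last narrowly (2.63 against 2.66%). Median UMIs still differed inside the range, at 1692 to 1772.5 in WT normal against 1375 to 1521.5 in WT tumor-bearing replicates. They were 1369 to 1446 in LAIR1KO tumor-bearing and 1438.5 to 1518 in LAIR1KO normal ones. Neutrophil-like cells that no hashtag could be given to, which enter no test, had 3.00% in LAIR1KO tumor-bearing, 2.65% in LAIR1KO normal, 2.52% in WT tumor-bearing and 3.54% in WT normal lungs (112, 198, 15 and 31 cells).

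Markers of other cell types were examined in the same replicates. T cell markers summed to 0.0353 to 0.166 per 10000 UMIs in every neutrophil-like replicate, with Cd3e and Trac at 0, and natural killer cell markers to 0.0467 at most. The 12 interstitial macrophage markers summed to 3.88, 8.92 and 4.67 per 10000 in LAIR1KO tumor-bearing replicates, against 2.84, 3.93 and 3.19 in WT tumor-bearing ones and 2.14 to 4.36 in the 6 normal ones. All 12 had UMIs in LAIR1KO tumor-bearing lungs, and Cd163 was at 0 in WT tumor-bearing ones. The 10 epithelial markers summed to 9.20 ± 0.480 per 10000 in LAIR1KO tumor-bearing, 6.01 ± 0.808 in LAIR1KO normal, 9.80 ± 0.0474 in WT tumor-bearing and 8.20 ± 0.520 in WT normal lungs (SD, n = 3 each), with Epcam at 0 in both LAIR1KO groups. Neutrophil markers themselves summed to 1118 to 1561. The part of these transcripts in the ribosomal protein differences was not tested.

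**Figure D3:**
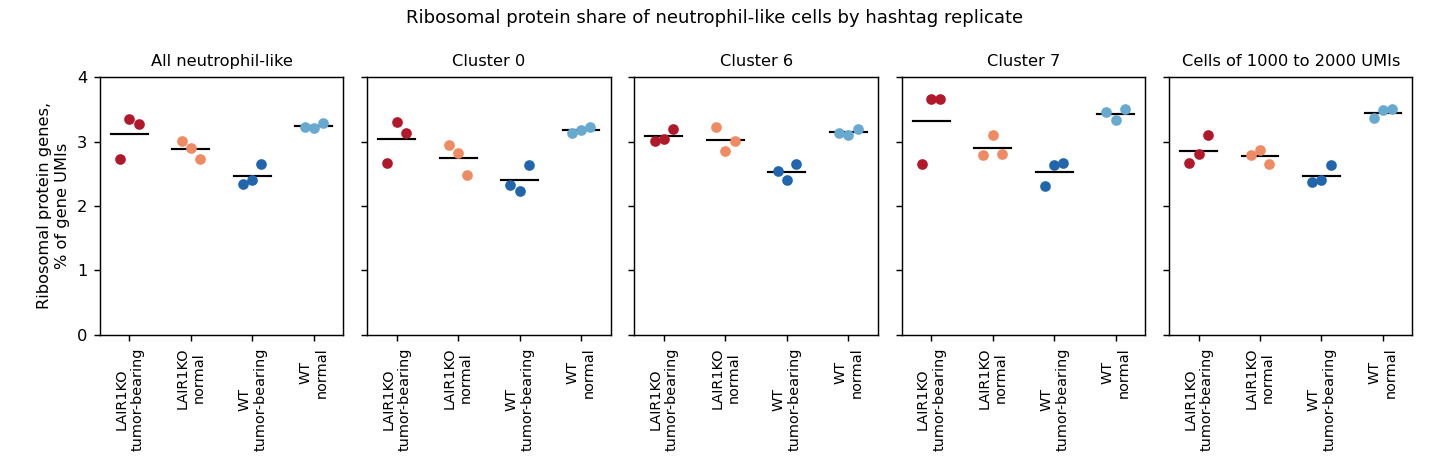
Ribosomal protein genes as a percent of gene UMIs are plotted by hashtag replicate for all neutrophil-like cells, for each of their 3 clusters and for cells of 1000 to 2000 UMIs, with a line at the mean of 3 replicates. WT tumor-bearing replicates (2.35 to 2.65% over all cells) lie below the WT normal ones (3.21 to 3.28%) in every panel. WT tumor-bearing replicate 3 has 8 cells in cluster 6.

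Gene by gene, 81 members had enough counts to be fitted in neutrophil-like cells (Rpl7l1, Rpl39l and Rpl10l did not). In WT all 81 were lower in tumor-bearing than in normal lungs by point estimate, with a median log2 fold change of -0.38 (range -1.06 to -0.03) against 0.01 over all 3347 genes fitted. Of these, 15 members passed an adjusted p of 0.05 (edgeR quasi-likelihood test, Benjamini-Hochberg over all genes), where 0.926% of all genes passed in that direction, and the replicates of 58 members did not overlap, where 12.5% of all genes lay wholly lower. The choice of the genes knew this contrast, so nothing is read from these counts, and 1 to 6 members passed when any 1 of the 6 replicates was left out. Lowest were Rps27l (log2 -1.06 ± 0.32 SE), Rpl15 (-0.95 ± 0.28), Rpl5 (-0.93 ± 0.27), which together with Rpl11 binds Mdm2, Rps20 (-0.90 ± 0.25) and Rpl6 (-0.89 ± 0.24). Nearest to 0 were Rps19 (-0.03 ± 0.21), the gene most often mutated in human Diamond-Blackfan anaemia, Rps26 (-0.05 ± 0.17), Rpl37a (-0.08 ± 0.11), Rps12 (-0.11 ± 0.14) and Rps9 (-0.11 ± 0.09). Rps9 had 2078, 1979 and 2102 CPM in WT tumor-bearing replicates, against 2193, 2334 and 2336 CPM in WT normal ones. Rps27 had 2203, 2105 and 2624 CPM in WT tumor-bearing replicates, against 3157, 3018 and 3012 CPM in WT normal ones. Both genes, the leaders of the pool, lay wholly lower in WT tumor-bearing lungs, Rps9 by less.

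In LAIR1KO neutrophil-like cells 0 members passed in tumor-bearing against normal lungs with edgeR (0.269% of all genes did) and 0 with DESeq2, while 7 had an unadjusted p under 0.05. The median log2 fold change was 0.16, with 72 members above 0 and 9 below. Highest were Rpl12 (0.71 ± 0.42 SE), Rpl24 (0.51 ± 0.17), the gene altered in Belly spot and tail mice, Rpl26 (0.49 ± 0.18), Rpl21 (0.47 ± 0.19) and Rpl14 (0.46 ± 0.26). Among the lowest were Rpl3l (-0.59 ± 0.40), Rps27l (-0.26 ± 0.34), Rpl6 (-0.20 ± 0.23) and Rpl5 (-0.13 ± 0.26). Rps27l, Rpl6 and Rpl5 were thus among the lowest in both genotypes.

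Between genotypes in tumor-bearing lungs, a contrast that was not used to choose the genes but shares the WT tumor-bearing replicates with one that was, 3 members rose in LAIR1KO neutrophil-like cells. They included Rps28 and Rpl8, and 0.209% of all genes passed in that direction. All 3 were also among the 15 members past the threshold for tumor in WT, so these calls are not independent of the choice of the genes.

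Rps28, a small-subunit protein beside the mRNA exit, whose start is printed above, had 463, 640 and 659 CPM in LAIR1KO tumor-bearing replicates, against 330, 348 and 350 CPM in WT tumor-bearing ones. It rose by log2 0.78 ± 0.14 (SE; adjusted p = 0.00547, edgeR). The groups did not overlap, and the LAIR1KO replicates were the more spread.

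Rpl8, a large-subunit protein close to the peptidyl transferase centre, had 274, 318 and 334 CPM in LAIR1KO tumor-bearing replicates, against 150, 192 and 199 CPM in WT tumor-bearing ones. It rose by log2 0.78 ± 0.16 (adjusted p = 0.0120). All LAIR1KO replicates lay above all WT ones.

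The calls depended on single replicates. Without WT tumor-bearing replicate 2 none of the members passed (Rps28 adjusted p = 0.0580, Rpl8 0.0625, edgeR), whereas without LAIR1KO tumor-bearing replicate 1, the one with a low share, 6 did. Rpl8 also lost its call without WT tumor-bearing replicate 1 (0.0968) and without LAIR1KO tumor-bearing replicate 3 (0.0640), and leaving out that LAIR1KO replicate kept 1 call. Under 10 other settings Rps28 (adjusted p 0.00121 to 0.0305) and Rpl8 (0.00942 to 0.0440) passed in all 10. The log2 fold changes over the 6 fits without a replicate stayed between 0.68 and 0.92 for Rps28 and between 0.69 and 0.85 for Rpl8.

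Beyond these calls, all 81 members fitted had a higher estimate in LAIR1KO tumor-bearing than in WT tumor-bearing neutrophil-like cells (49.2% of all genes did), with a median log2 fold change of 0.36 and a range of 0.06 to 1.03. The replicates of 32 members lay wholly higher in LAIR1KO and those of 0 wholly lower, where 6.9% of all genes lay wholly higher. At the low end, Rps9 had 2029, 2111 and 2177 CPM in LAIR1KO tumor-bearing replicates, against 2078, 1979 and 2102 CPM in WT tumor-bearing ones, and did not pass (log2 0.06 ± 0.10). Rps27 had 2539, 3144 and 2877 CPM in LAIR1KO tumor-bearing replicates, against 2203, 2105 and 2624 CPM in WT tumor-bearing ones, and overlapped (0.32 ± 0.10, not past the threshold).

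**Figure D4:**
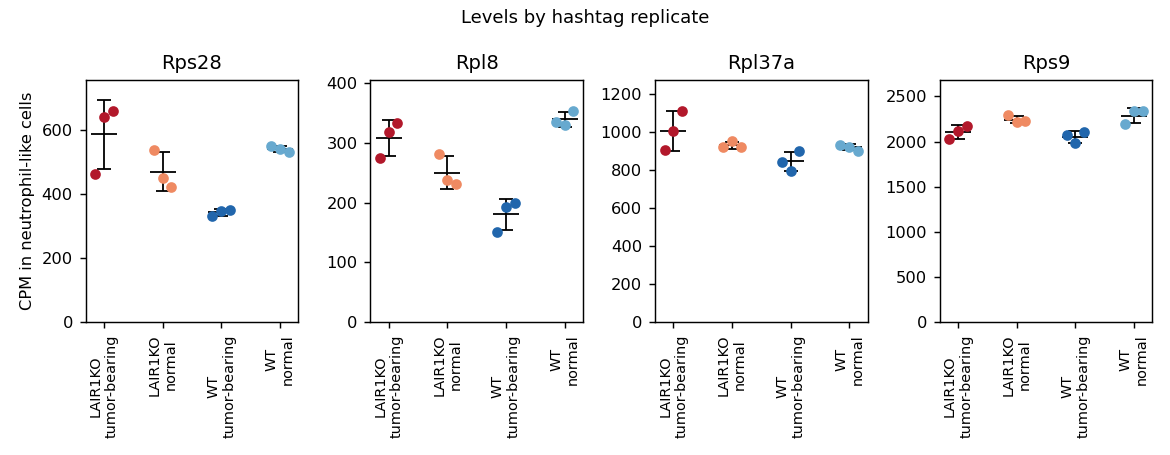
CPM in neutrophil-like cells are plotted for each hashtag replicate, with the mean and SD of 3 replicates, for Rps28 and Rpl8, which passed between genotypes in tumor-bearing lung and for Rpl37a and Rps9, which were among the members nearest to 0 for tumor in WT. Rps28 and Rpl8 are lowest in WT tumor-bearing lungs (Rps28 330 to 350 CPM), while Rps9 lies between 1979 and 2336 CPM in every replicate.

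In normal lungs 0 members passed between LAIR1KO and WT neutrophil-like cells with edgeR (0.538% of all genes did) and 0 with DESeq2, and 16 had an unadjusted p under 0.05. Here the estimates pointed the other way, with 70 of the 81 members fitted lower in LAIR1KO and a median log2 fold change of -0.19. The replicates of 26 members lay wholly lower in LAIR1KO normal lungs, where 9.89% of all genes did. This contrast shares its WT normal replicates with the tumor difference in WT, which was known when the genes were chosen. Rpl8 had 282, 238 and 231 CPM in LAIR1KO normal replicates, against 336, 330 and 353 CPM in WT normal ones (log2 -0.45 ± 0.14, not past the threshold). LAIR1KO normal mice were female and WT normal mice male in these libraries, and sex and genotype cannot be told apart there. Of the 4 X-linked members Rps4x was the furthest from 0 (-0.55 ± 0.21), with -0.12 ± 0.15 for Rpl10, -0.11 ± 0.27 for Rpl36a and -0.05 ± 0.13 for Rpl39, and none passed.

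The tumor difference of neutrophil-like cells was then compared between genotypes as LAIR1KO tumor-bearing minus normal against WT tumor-bearing minus normal. This interaction uses the libraries of the WT tumor contrast that the choice of the genes knew, so its values are a description. It was above 0 for 79 of the 81 members fitted, with a median of 0.59 on the log2 scale, and 8 members passed in that direction, where 0.329% of all genes did. Leaving out any 1 of the 12 replicates gave 1 to 12 members, the most without LAIR1KO tumor-bearing replicate 1. They included Rpl8, Rps28, Rpl27a, Rpl24, Rpl26, Rpl36 and Rpl21, and 6 of the 8 were also among the 15 of the WT tumor contrast. Rpl27a, whose printed start holds the longest pyrimidine run of those shown, had 446, 444 and 546 CPM in LAIR1KO tumor-bearing and 410, 383 and 377 CPM in LAIR1KO normal replicates, against 363, 341 and 332 CPM in WT tumor-bearing and 482, 538 and 520 CPM in WT normal ones. Its tumor-bearing replicates lay wholly above the normal ones in LAIR1KO and wholly below them in WT. Rpl24 had 233, 266 and 309 CPM in LAIR1KO tumor-bearing and 218, 183 and 189 CPM in LAIR1KO normal replicates, against 138, 208 and 194 CPM in WT tumor-bearing and 306, 270 and 255 CPM in WT normal ones. It showed the same 2 opposite orders, without overlap in either genotype.

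**Figure D5:**
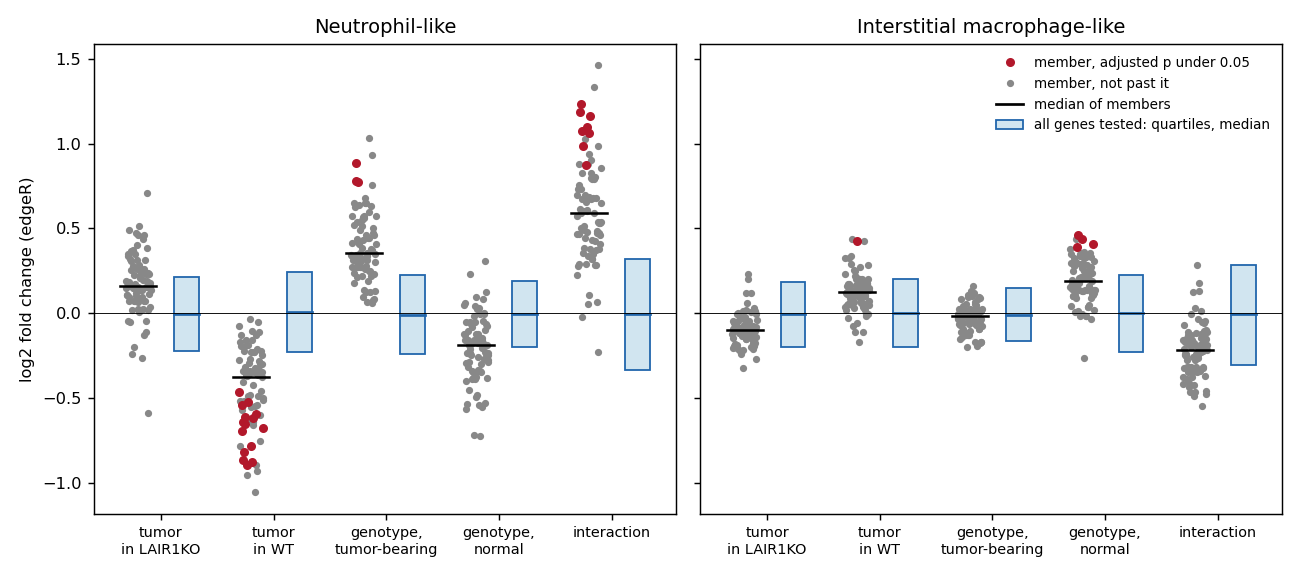
Log2 fold changes from edgeR are plotted for each fitted ribosomal protein gene (points, with a line at their median) beside the quartiles and median of all genes tested (boxes), for 5 contrasts, in neutrophil-like cells (left) and interstitial macrophage-like cells (right). The medians of the members in neutrophil-like cells are 0.16, -0.38, 0.36, -0.19 and 0.59 in the order drawn, and those of all genes lie near 0. Red points had an adjusted p under 0.05.

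Other translation genes were followed in the same fits of neutrophil-like cells, and 0 of them passed with edgeR in any of the 5 contrasts. Of 20 other genes known for a TOP start, such as the elongation factor Eef1a1, 14 were fitted. Their median log2 fold change was 0.21 for genotype in tumor-bearing lung, with 13 above 0 and 1 below and 2 at an unadjusted p under 0.05, and -0.17 for genotype in normal lung. In tumor-bearing against normal lungs it was 0.07 in LAIR1KO and -0.37 in WT, where all 14 were below 0. Translation initiation factors (14 of 25 fitted) had medians of 0.19 for genotype in tumor-bearing lung, -0.20 in normal lung, 0.16 for tumor in LAIR1KO and -0.23 for tumor in WT. Ribosome assembly factors, which act in the nucleolus and cytoplasm, were mostly too low, with 5 of 40 fitted and a median of 0.12 for genotype in tumor-bearing lung. Regulators of ribosomal protein mRNA, mTOR pathway genes among them, had 7 of 18 fitted and a median of -0.02, and genes of ribosome quality control and stress 4 of 15 and -0.23. Mitochondrial ribosomal proteins, whose mRNAs serve another ribosome, had 8 of 78 fitted, with medians of -0.07 for genotype in tumor-bearing lung, -0.10 for tumor in LAIR1KO and 0.03 for tumor in WT.

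In interstitial macrophage-like cells 4 of the 81 members fitted passed between genotypes in normal lungs and 0 in tumor-bearing lungs. The interaction, which compares those 2 differences and is given as description, held 0 members past the threshold with edgeR (1.17% of all genes were) or DESeq2, 24 at an unadjusted p under 0.05, and 3 past the threshold without WT tumor-bearing replicate 2. The share of ribosomal protein UMIs was 11.3, 11.4 and 11.5% in LAIR1KO tumor-bearing, 12.1, 12.4 and 11.5% in LAIR1KO normal, 11.3, 10.7 and 12.5% in WT tumor-bearing, and 10.5, 10.4 and 9.95% in WT normal lungs. WT normal replicates lay below all others.

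In normal lungs 4 members rose in LAIR1KO interstitial macrophage-like cells, where 0.761% of all genes did. The WT normal replicates of this contrast also enter the tumor difference in WT, which was known when the genes were chosen. Rpl41 had 3825, 3912 and 3679 CPM in LAIR1KO normal replicates, against 3014, 2876 and 2680 CPM in WT normal ones (log2 0.44 ± 0.10 SE, adjusted p = 0.0305, edgeR). Rps28 had 4476, 4786 and 4453 CPM in LAIR1KO normal replicates, against 3500, 3774 and 3347 CPM in WT normal ones (0.39 ± 0.09, adjusted p = 0.0469, edgeR). Neither gene overlapped between the groups.

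The other 2 were large-subunit genes. Rpl35a, whose start is printed above, had 3613, 3823 and 3326 CPM in LAIR1KO normal replicates, against 2773, 2755 and 2693 CPM in WT normal ones (0.41 ± 0.10, adjusted p = 0.0458, edgeR). Rpl35 had 1344, 1392 and 1243 CPM in LAIR1KO normal replicates, against 1037, 952 and 939 CPM in WT normal ones (0.46 ± 0.11, adjusted p = 0.0469, edgeR). All LAIR1KO replicates of both lay above all WT ones.

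Of the 81 members fitted 75 had a higher estimate in LAIR1KO, with a median log2 fold change of 0.19, and the replicates of 45 lay wholly higher, where 7.01% of all genes did. With any 1 of the 6 replicates left out the 4 calls did not hold (adjusted p 0.0611 to 0.184 for Rpl41, 0.0828 to 0.262 for Rpl35a, 0.0699 to 0.252 for Rps28 and 0.0917 to 0.255 for Rpl35). Over 9 other settings Rpl41 was lost in 2 and each of the other genes in 7. Sex differs between these groups and cannot be told apart from genotype. Depth differed as well, with 1789122 UMIs in 254 cells of WT normal and 1223392 UMIs in 217 cells of LAIR1KO normal lungs. The part of depth was not tested. Of the X-linked members Rpl39 (0.44 ± 0.11, adjusted p = 0.0635, edgeR) stood as high as the 4 called ones, Rpl36a had 0.28 ± 0.13, Rpl10 0.15 ± 0.11 and Rps4x 0.04 ± 0.12. Among the other lists, Fau, a TOP gene, rose in the same contrast (0.39 ± 0.10, adjusted p = 0.0498, edgeR), as did Eif2s3x, an X-linked initiation factor subunit known to escape X inactivation (1.17 ± 0.18, adjusted p = 0.00160, edgeR).

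In tumor-bearing lungs 0 of the 81 members passed between genotypes in interstitial macrophage-like cells with edgeR (0.136% of all genes did) or DESeq2, and 0 had an unadjusted p under 0.05. The median log2 fold change was -0.02, with 32 members above 0 and 49 below. Rps28 had 4189, 4365 and 4284 CPM in LAIR1KO tumor-bearing replicates, against 4320, 4097 and 4627 CPM in WT tumor-bearing ones (-0.02 ± 0.09), and Rpl8 was not called either. Whether the genotype difference of a gene differs between the cell types was not tested.

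Tumor-bearing against normal lungs, again as description, gave medians of -0.10 in LAIR1KO and 0.12 in WT. In LAIR1KO 0 members passed with edgeR (0.0136% of all genes did) or DESeq2, with 5 at an unadjusted p under 0.05, and 22 lay wholly lower, where 5.7% of all genes did. Lowest there were Rpl31 (-0.32 ± 0.12), Rpl17 (-0.27 ± 0.12), Rpl7 (-0.24 ± 0.11), Rpsa (-0.22 ± 0.12) and Rpl23 (-0.22 ± 0.10), and highest Rps27l (0.23 ± 0.16), Rpl22l1 (0.20 ± 0.16), Rpl36al (0.12 ± 0.13), Rpl7l1 (0.12 ± 0.22) and Rpl29 (0.06 ± 0.14). In WT 1 member, Rpl41, passed (0.43 ± 0.10; 0.394% of all genes did in that direction; lost in 5 of the 6 fits that left out a replicate, while 5 members passed without WT tumor-bearing replicate 2), with 3733, 3615 and 4213 CPM in tumor-bearing and 3014, 2876 and 2680 CPM in normal replicates. By estimate Rpl35 (0.44 ± 0.11) was the highest in WT, followed by Rpl41, Rps26 (0.43 ± 0.12), Rpl39 (0.34 ± 0.11) and Rpl37a (0.33 ± 0.09). Lowest in WT were Rpl7l1 (-0.17 ± 0.20), Rps4x (-0.11 ± 0.11), Rpl21 (-0.11 ± 0.12), Rpl15 (-0.08 ± 0.13) and Rps3 (-0.05 ± 0.10). Rpl41 was thus lowest in WT normal lungs, which enter both this contrast and the genotype contrast in normal lung. In WT the replicates of 24 members lay wholly higher in tumor-bearing lungs, where 8.05% of all genes did, and those of 0 wholly lower.

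Epithelial cell-like cells had 10.0, 10.3 and 10.0% of UMIs in these genes in LAIR1KO tumor-bearing, 9.82 and 9.61% in LAIR1KO normal, 8.89, 8.87 and 8.67% in WT tumor-bearing, and 9.63, 9.39 and 9.17% in WT normal lungs. LAIR1KO normal replicate 1 had 8 such cells and was left out. LAIR1KO tumor-bearing replicates lay above all WT tumor-bearing ones. All 81 members fitted had a higher estimate in LAIR1KO tumor-bearing than in WT tumor-bearing lungs, with a median log2 fold change of 0.22. However, 0 passed with edgeR (0.143% of all genes did) or DESeq2. An unadjusted p under 0.05 was found for 41, with no share of all genes at that threshold to set beside them. In normal lungs 0 passed between genotypes (0.821% of all genes did; 8 at an unadjusted p under 0.05 and 0 with DESeq2). The tumor contrast in WT, as description, held 4 members past the threshold, all lower in tumor-bearing lungs, where 0.209% of all genes were. They were Rpl21 (-0.52 ± 0.09), Rpl32 (-0.47 ± 0.10), Rps3 (-0.47 ± 0.11), which lies at the mRNA entry, and Rpl7 (-0.47 ± 0.11), and 0 or 1 passed when any 1 replicate was left out. Rpl21 is also the gene whose part of the pool was highest in epithelial cell-like cells (1.69% of ribosomal protein UMIs, 2.22-fold the median class).

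In the interaction of epithelial cell-like cells 2 members passed, where 0.0912% of all genes passed in that direction, and 0 passed in 10 of 11 fits that left out a replicate (1 without LAIR1KO tumor-bearing replicate 3). Rps4x, an X-linked small-subunit gene, had 1110, 912 and 913 CPM in LAIR1KO tumor-bearing and 795 and 776 CPM in LAIR1KO normal replicates, against 797, 799 and 779 CPM in WT tumor-bearing and 1050, 967 and 982 CPM in WT normal ones. Rpl21 had 1615, 1643 and 1604 CPM in LAIR1KO tumor-bearing and 1580 and 1514 CPM in LAIR1KO normal replicates, against 1376, 1264 and 1312 CPM in WT tumor-bearing and 1832, 1847 and 1711 CPM in WT normal ones. Rps4x and Rpl21 were each lower in tumor-bearing lungs in WT and higher in tumor-bearing lungs in LAIR1KO, without overlap.

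In the other 8 classes with at least 2 replicates in both groups, 0 members passed between genotypes in tumor-bearing lung with edgeR or DESeq2, and 0 to 7 had an unadjusted p under 0.05, while 0.0928% of all genes passed in B cell-like, 0.0422% in conventional dendritic cell-like and 0.0248% in alveolar macrophage-like cells and 0 in the other classes. Endothelial cell-like cells had 73 members above 0 and 8 below, with a median log2 fold change of 0.09, and fibroblast-like cells 71 and 10, with 0.05. Monocyte-like cells had 64 above and 16 below (median 0.13), alveolar macrophage-like cells 61 and 21 (0.09) and natural killer cell-like cells 71 and 9 (0.26). The signs were mostly the other way in conventional dendritic cell-like cells, with 16 above and 64 below (-0.07), in B cell-like cells, with 3 and 77 (-0.30), and in T cell-like cells, with 8 and 72 (-0.28). Whether these classes differ from neutrophil-like cells was not tested.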

How the data were processed

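Cells of 4 droplet libraries (10x 3′ v3 chemistry, per the labels' protocols) carried hashtag antibodies, and gene and hashtag UMI counts are used as the authors deposited them. Cell Ranger 4.0.0, STAR, R 4.0.0, Seurat 3.2.0 and mm10 are named in the submitters' processing notes.

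Cells with at least 300 genes and at most 10% mitochondrial UMIs were kept where exactly 1 hashtag was positive (Seurat 5.3.0, quantile 0.99), which drops doublets between hashtags. Clusters (scanpy 1.11.5, Leiden, 2000 variable genes, 30 components, 15 neighbours, resolution 1) were built without the ribosomal protein genes and named from markers. Scrublet doublets were removed only as an alternative. Counts were summed for each hashtag replicate and class with at least 10 cells. All groups of a class were fitted together with edgeR 4.0.16 (quasi-likelihood test, TMM, low genes filtered), with p adjusted over all genes tested, and SE was taken as the log2 fold change over the root of F. DESeq2 1.42.0 served as an alternative (R 4.3.3). The edgeR steps were tested on simulated data. CPM are plain UMIs per 1000000 UMIs of the replicate.

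Members and lists were chosen with earlier results of these data known. Genes named were the 10 members with the most UMIs, the 5 highest and 5 lowest in each tumor contrast of neutrophil-like and interstitial macrophage-like cells, members past the threshold in a genotype contrast or the interaction (at most 10 for each), paralog pairs, X-linked members, up to 4 genes past the threshold in each other list in neutrophil-like cells, and the 5 genes most alike across classes. The leaders of the neutrophil-like pool and its lowest members, the members past the threshold for tumor in WT in epithelial cell-like cells, Fau and Eif2s3x were named after their values were seen. Some genes that these rules name are not reported here, though counts and medians include them. Counting error sets the precision of low genes, and 109873 to 567094 UMIs lay behind each neutrophil-like replicate.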

Additional observations from a re-analysis of the deposited data

Results flagged for a closer look

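The values below are those past the threshold in the edgeR interaction term, the tumor difference (tumor-bearing minus normal) of LAIR1KO minus that of WT. They are a description and not a test, because the term contains the WT tumor difference, which was known when the genes were chosen, and 6 of its 8 members in neutrophil-like cells were also past the threshold in that difference. Each value rests on 4 libraries, and its cause was not tested. In neutrophil-like cells the difference in log2 fold change was 1.23 ± 0.21 (SE) for Rpl8, 0.99 ± 0.19 for Rps28, 0.87 ± 0.19 for Rpl27a, 1.06 ± 0.24 for Rpl24 and 1.19 ± 0.26 for Rpl26. It was 1.16 ± 0.27 for Rpl36 and 1.10 ± 0.27 for Rpl21. In epithelial cell-like cells it was 0.75 ± 0.17 for Rps4x and 0.62 ± 0.14 for Rpl21. Sex moved with the WT contrast only, and the part of sex in these values cannot be told apart from that of the library.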

How the results depend on the processing

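No estimate changed sign with a call in any alternative, and no other scaling moved the median of all genes by more than 0.0256 (log2). No paired analysis was possible because each group is 1 library and the hashtag numbers mark different replicates in each. The counts of members past the threshold moved most. In neutrophil-like cells tumor in WT (15 members) gave 8 with DESeq2, 8 without the filter and 6 without cluster 6, the last chosen after seeing the data. Genotype in tumor-bearing lung (3) gave 5 with DESeq2 and 5 without the filter. Genotype in normal lung (0) gave 1 without Scrublet doublets, with these genes used for clustering, without the filter or with only the groups compared, and 3 with another hashtag rule. The interaction (8) gave 3 with DESeq2, 2 with these genes used for clustering and 1 without cluster 6.

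In epithelial cell-like cells tumor in WT (4) gave 1 without Scrublet doublets. Genotype in normal lung (0) gave 1 without the filter and 6 with another hashtag rule. The interaction (2) gave 1 with DESeq2 size factors or at 500 genes a cell and 0 without Scrublet doublets, with these genes used for clustering or with another hashtag rule. In interstitial macrophage-like cells tumor in WT (1) gave 4 with DESeq2, 3 without the filter and 0 at 500 genes a cell, with these genes used for clustering or with only the groups compared. Genotype in normal lung (4) gave 0 with these genes used for clustering or another hashtag rule and 1 with DESeq2 size factors, at 500 genes a cell, without the filter, with normalization without these genes or with only the groups compared.

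With a replicate left out, the counts ranged from 1 to 6 for tumor in WT, 0 to 6 for genotype in tumor-bearing lung, 0 to 1 for genotype in normal lung and 1 to 12 for the interaction in neutrophil-like cells. They ranged from 0 to 1 for tumor in WT and for the interaction in epithelial cell-like cells, and from 0 to 5 for tumor in WT, 0 to 0 for genotype in normal lung and 0 to 3 for the interaction in interstitial macrophage-like cells. Of the shares, with another hashtag rule monocyte-like cells had 13.4% and pericyte or smooth muscle-like cells 9.45%. Neutrophil-like cells of WT normal lungs, at 3.24% in the main setting, had 3.3% with another hashtag rule. Their cells of 1000 to 2000 UMIs had 3.45%. Interstitial macrophage-like cells of LAIR1KO tumor-bearing lungs had 11.8% with these genes used for clustering, 11.3% with another hashtag rule and 11.7% without mitochondrial UMIs. Those of LAIR1KO normal lungs had 12.6%, and those of WT normal lungs 11.1%, with these genes used for clustering, and WT normal ones 10.7% without mitochondrial UMIs.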
